A study of Mus musculus with 8 samples.

Results

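The 10 coenzyme Q synthesis genes examined here were Coq2, Coq3, Coq4, Coq5, Coq6, Coq7, Coq8a, Coq8b, Coq9 and Pdss1, and they were chosen by name, as enzymes and accessory proteins of one pathway, among 21887 protein-coding genes on the chromosomes with peaks. For each gene, every peak of phosphorylated CREB1 was listed whose summit, the base of highest enrichment, lay inside the gene's GRCm38 span or within 5000 bp of it. Binding was measured by ChIP-seq, that is, immunoprecipitation of crosslinked chromatin followed by sequencing, in muscle of CTRL mice and of C26 mice, with 2 phospho-CREB1 libraries and 2 input libraries per group. The C26 mice were male Balb/c animals given C26 adenocarcinoma cells under the skin of the flank at 2 months of age, a transplanted tumor used as a model of cancer cachexia, and the CTRL mice are labelled only as controls. The labels give the tissue as gastrocnemius muscle, whereas the extraction protocol speaks of quadriceps. The treatment protocol gives C26 mice either rolipram at 3 mg/kg from day 4 or its ethanol vehicle, without telling which of these applied to the animals profiled here. Nothing in the labels says whether the replicates came from separate mice. Where a pair of values is given for a group, it is in the order of replicates 1 and 2.

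Coenzyme Q, or ubiquinone, is the lipid that carries electrons within the inner mitochondrial membrane from complexes I and II and several other dehydrogenases to complex III. Its ring derives from 4-hydroxybenzoate and its long tail from the mevalonate pathway; the tail is attached to the ring in mitochondria, and a set of COQ proteins, many of them held together in one assembly, then hydroxylate and methylate the ring. CREB1 is a transcription factor that is phosphorylated downstream of cAMP and binds the cAMP response element, TGACGTCA, or its core, TGACG, which reads CGTCA on the other strand.

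The peak lists held 4051 to 14975 peaks, the most in CTRL replicate 2 and the fewest in C26 replicate 2. Read depth was unknown, so a gene without a peak is one where no peak passed the authors' threshold in that library. Peak strength is given as the summit's fold enrichment over input and as its percentile by −log10 q among the peaks of its own list, with 100 for the strongest. Both are the authors' values or ranks of them, scaled by each library and its input, and they are compared only within a list. Among markers of muscle fibers, 7 of 10 genes had a peak near a gene end in the CTRL pair of libraries, among them Acta1, Ckm, Mb and Ttn, against 1 of 19 markers of endothelial cells, fibroblasts, leukocytes, adipocytes and Schwann cells. In C26 muscle the muscle markers had such a peak at 5 and 2 genes of 10 in replicates 1 and 2, and the other markers at 1 and 0 of 19. Of all protein-coding genes, 32.2% had such a peak in the CTRL pair, and 26.1% and 14.0% in the C26 replicates.

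Promoter sequence was available in the RefSeq promoter table of GRCm38.p6 for 8 of the 10 genes, that is, all but Coq5 and Coq8b. Each window runs from 250 bases before to 50 bases after the gene's start. The windows below are those of the 3 genes with the strongest peaks, Coq7, Coq9 and Coq2, of Coq6, which also carried a core, and of Coq8a, which had a peak in all 4 libraries without one. Each is written 5′ to 3′ on the gene's own strand, in lower case, with every match to TGACG or CGTCA in capitals.
Coq2 (chr5:100674207-100674506, minus strand): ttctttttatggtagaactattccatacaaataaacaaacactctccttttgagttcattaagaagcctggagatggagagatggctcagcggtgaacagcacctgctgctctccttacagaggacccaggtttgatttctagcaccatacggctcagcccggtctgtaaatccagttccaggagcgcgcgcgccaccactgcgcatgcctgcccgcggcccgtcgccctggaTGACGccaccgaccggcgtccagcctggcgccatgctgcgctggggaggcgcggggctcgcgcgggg
Coq9 (chr8:94838163-94838462, plus strand): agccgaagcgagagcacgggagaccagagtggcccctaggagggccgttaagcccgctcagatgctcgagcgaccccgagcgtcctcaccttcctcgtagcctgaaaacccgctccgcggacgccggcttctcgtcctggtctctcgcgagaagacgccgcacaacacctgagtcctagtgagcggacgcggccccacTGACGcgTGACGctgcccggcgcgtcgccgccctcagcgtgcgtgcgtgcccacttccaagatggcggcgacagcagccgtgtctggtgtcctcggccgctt
Coq6 (chr12:84361718-84362017, plus strand): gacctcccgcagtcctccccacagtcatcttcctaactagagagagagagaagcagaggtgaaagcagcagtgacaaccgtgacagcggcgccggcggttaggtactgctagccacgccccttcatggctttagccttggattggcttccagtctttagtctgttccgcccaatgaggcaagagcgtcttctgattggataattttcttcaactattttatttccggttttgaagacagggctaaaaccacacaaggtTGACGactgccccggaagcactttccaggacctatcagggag
Coq7 (chr7:118533307-118533606, minus strand): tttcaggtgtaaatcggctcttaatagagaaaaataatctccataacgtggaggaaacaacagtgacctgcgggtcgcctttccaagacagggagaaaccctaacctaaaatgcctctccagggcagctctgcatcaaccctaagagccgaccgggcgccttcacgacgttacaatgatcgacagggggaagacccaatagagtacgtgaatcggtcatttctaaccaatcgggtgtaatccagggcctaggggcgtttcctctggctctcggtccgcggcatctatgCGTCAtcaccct
Coq8a (chr1:180195971-180196270, minus strand): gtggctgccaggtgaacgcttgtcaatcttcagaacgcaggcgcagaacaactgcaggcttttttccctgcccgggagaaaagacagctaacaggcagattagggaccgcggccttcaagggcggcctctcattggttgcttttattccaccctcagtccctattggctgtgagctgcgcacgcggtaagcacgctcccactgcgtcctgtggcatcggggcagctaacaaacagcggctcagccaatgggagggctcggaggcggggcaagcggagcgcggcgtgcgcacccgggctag

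At least 1 core was found in 4 of the 8 genes (Coq2, Coq6, Coq7 and Coq9), and the full palindrome TGACGTCA in none of them. The additional windows listed for Coq3 and Coq8a held no core either. These are counts of genes, whereas the shares below are of windows, of which a gene can have more than 1. Among all 32851 windows of the table, searched on both strands, 20.8% held a core and 1.79% the palindrome, which contains a core on each strand. The corresponding shares were 62.6% and 11.1% of the 2765 windows overlapped by a peak in all 4 libraries and 13.1% and 0.698% of the 22937 windows overlapped by none. CpG-rich windows were also more frequent among bound ones, with a median of 25 CpG dinucleotides in windows with a peak in all 4 libraries and 4 in windows with none. The first listed windows of the 8 genes had a median of 20. A match to these letters is a description of the window and does not identify the bound base.

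In Coq2 and Coq9 the summits fell almost on top of the cores shown above. The middle of the Coq2 core, whose first base lies 17 bp before the start, was 4 and 3 bp from the summits of the CTRL replicates and 4 and 12 bp from those of the C26 replicates. Coq9 has 2 cores, with first bases 52 and 45 bp before its start. The nearer of them was 2 and 1 bp from the CTRL summits and 17 and 12 bp from the C26 summits, in replicate order. For Coq6, whose core begins at base 9 of the transcript, the distances were 15, 47 and 68 bp in CTRL replicates 1 and 2 and C26 replicate 1. For Coq7 the core in the window, at base 39 of the transcript, lay 217 to 228 bp from the summits. These summits sat outside the window shown, where no sequence was searched, so whether another core lies nearer to them is unknown. Across all windows that held both a core and a summit, the median distance between them was 21 to 23 bp in the 4 libraries. Of these windows, 53.3% to 55.7% had a core within 25 bp of a summit. The Coq7 window, which held no summit, is not among them.

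All 10 genes had a peak within their span or 5000 bp of it in at least 1 library, and in each list the strongest peaks of the pathway sat at gene ends. Within this window, 9 and 10 genes had a peak in the CTRL replicates (43.6% and 50.4% of all protein-coding genes did) and 9 and 5 in the C26 replicates (34.3% and 19.8%). Of the 47 peaks listed, 33 were gene-end peaks, whose summit lay no more than 1000 bp from the lower or upper end of the span, and 14 lay elsewhere in the window. In the CTRL replicates, 8 and 9 of the 10 genes had a gene-end peak (33.9% and 40.1% of all genes), and in the C26 replicates 8 and 5 (26.1% and 14.0%). It was present in both CTRL libraries at 8 of 10 (32.2% of all genes), in both C26 libraries at 5 (13.0%) and in all 4 libraries at the same 5 (12.7%), namely Coq2, Coq7, Coq8a, Coq8b and Coq9. None of the 10 had one in the CTRL pair alone, compared with 7.4% of all genes, and none had one in the C26 pair alone, compared with 0.0274%. All protein-coding genes include many that are silent in muscle, so these shares do not set the pathway against active genes.

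**Figure D1:**
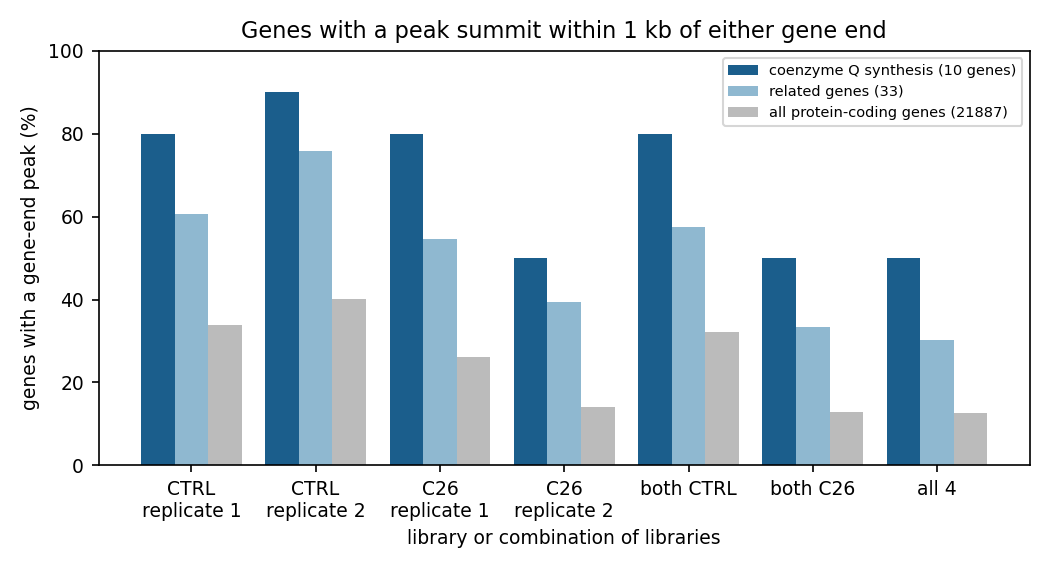
Percentage of genes (vertical axis) with a peak summit within 1 kb of either gene end, for each library and for combinations of libraries (horizontal axis). Bars show the 10 coenzyme Q synthesis genes, the 33 related genes and all 21887 protein-coding genes; in each of the libraries and combinations plotted the synthesis genes stand highest, from 9 of 10 in CTRL replicate 2 to 5 of 10 in C26 replicate 2, in the C26 pair and in all 4.

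The first committed steps are the making of the tail and its attachment to the ring. Pdss1, a subunit of the prenyl diphosphate synthase that builds the tail, had a peak of 3.8-fold enrichment in CTRL replicate 1, 11.5-fold in CTRL replicate 2 and 3.86-fold in C26 replicate 1, and none in C26 replicate 2. Their percentiles were 6.65, 72.2 and 20.6, so the gene stood near the bottom of one CTRL list and in the upper part of the other. The Pdss1 summits missed the gene-end rule because the annotated span begins upstream of the listed RefSeq start. They lay 1053 to 1393 bp inside the span, but 87 and 56 bp before the RefSeq start in CTRL replicate 2 and C26 replicate 1 and 253 bp after it in CTRL replicate 1.

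Coq2, the prenyltransferase that joins tail and ring, had one of the strongest peaks of the pathway. Replicates 1 and 2 gave an enrichment of 53.8- and 49.6-fold for CTRL and of 14.4- and 12.1-fold for C26, at percentiles 97.3, 97.2, 93.4 and 83.3. The summits lay 18 or 19 bp before the RefSeq start in 3 libraries and 3 bp before it in C26 replicate 2. No other protein-coding gene ended within 1000 bp of them.

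Of the ring-modifying enzymes, Coq7 had the strongest peak of all 10 genes in every library. It encodes the di-iron hydroxylase of a late step. Enrichment reached 54.2- and 91.8-fold in the CTRL replicates and 38.8- and 41.3-fold in the C26 replicates, and the peaks ranked 125th of 10835, 139th of 14975, 113th of 7482 and 45th of 4051. The peaks were 954 to 1182 bp wide, against list medians of 420 to 515 bp, and their summits lay 257 to 268 bp into the gene. Such width was not particular to Coq7, since the Coq9 peaks measured 1200 and 1113 bp in CTRL and 950 and 753 bp in C26. Over the 4 libraries, the genes whose percentiles were nearest to those of Coq7 were Prkrip1, Ranbp2 and Plaa, at Euclidean distances of 0.497, 0.511 and 0.662 percentile points, which is a description over 4 lists only.

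The other ring enzymes had weaker peaks, none of them in C26 replicate 2. Coq5, the C-methyltransferase, had 9.05- and 13.9-fold enrichment in the CTRL replicates and 5.59-fold in C26 replicate 1, with summits 4, 4 and 77 bp from the lower end of its span. Coq6, a flavin-dependent monooxygenase, had 7.02- and 10.8-fold in CTRL and 4.26-fold in C26 replicate 1. Coq3, the O-methyltransferase, had a single peak, of 5.45-fold in CTRL replicate 2 (percentile 29.6), 68 bp into the gene. It was the gene of the pathway with a peak in the fewest libraries. Within each list that held them, Coq5 stood above Coq6, with percentiles of 80.3 and 63.0 in CTRL replicate 1, 85.2 and 72.4 in CTRL replicate 2, and 53.3 and 43.2 in C26 replicate 1.

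Among the accessory proteins, Coq9, a lipid-binding partner of COQ7, had 35.0- and 60.2-fold enrichment in the CTRL replicates and 30.9- and 8.05-fold in the C26 replicates. It ranked 3rd, 2nd and 2nd among the 10 genes in CTRL replicate 1, CTRL replicate 2 and C26 replicate 1, and 4th in C26 replicate 2, where it stood behind Coq8a (percentiles 63.8 and 79.9). The C26 replicates therefore placed Coq9 differently among the 10 genes. Coq4, a component that organizes the COQ assembly, had weak peaks of 4.71- and 4.49-fold in CTRL and 3.76-fold in C26 replicate 1, at percentiles 27.5, 21.2 and 11.6, and none in C26 replicate 2.

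Coq8a and Coq8b encode atypical kinase-like ATPases that support the assembly, and both genes had a peak in all 4 libraries. For Coq8a, a form abundant in muscle, enrichment was 10.1- and 17.0-fold in the CTRL replicates and 6.71- and 11.0-fold in the C26 replicates, with summits 31 to 73 bp before its upstream RefSeq start. No peak overlapped the window of its other listed start, chr1:180193436-180193735. For Coq8b the values were 8.23- and 9.03-fold in CTRL and 4.83- and 6.23-fold in C26, within 19 bp of the lower end of the span. Coq8a ranked above Coq8b in CTRL replicate 2 (percentiles 85.5 and 71.1), C26 replicate 1 (75.5 and 58.2) and C26 replicate 2 (79.9 and 37.9), whereas in CTRL replicate 1 they stood together by −log10 q (71.1 and 71.5).

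**Figure D2:**
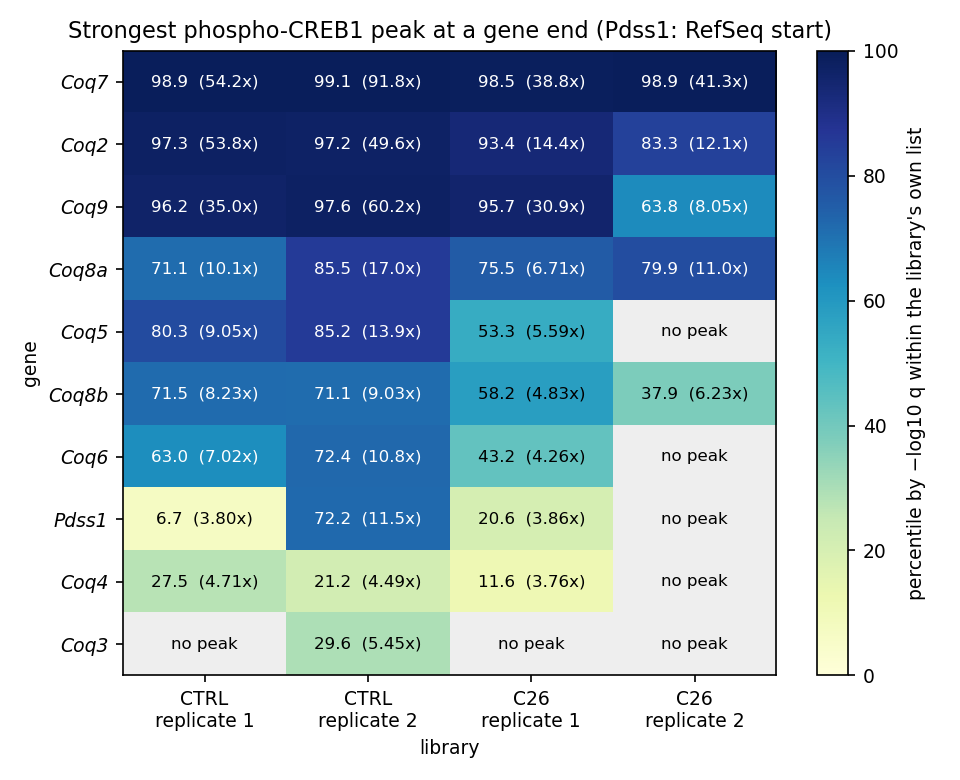
Strongest gene-end peak of each coenzyme Q gene (rows; for Pdss1, the peak at its RefSeq start) in each library (columns), colored by its percentile by −log10 q within that library's list, with the fold enrichment over input in brackets; gray cells had no peak. Coq7 is above percentile 98 in every column, while Coq3, Coq4, Coq5, Coq6 and Pdss1 have no peak in C26 replicate 2.

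In 4 of the genes the peak could not be assigned to one gene alone. The Coq9 summits lay near the start of Ciapin1, a factor for cytosolic iron-sulfur protein assembly transcribed in the opposite direction from a start 73 bp away. Coq6 and Fam161b also start on opposite strands, 140 bp apart. Coq4 and Trub2, a mitochondrial RNA pseudouridine synthase gene, start 178 bp apart on opposite strands, and the summits listed for Coq4 were nearer to Trub2, at 19 to 39 bp from its start. The Coq8b peak lay 47 to 78 bp before the start of Itpkc, an inositol trisphosphate kinase gene. Among the 17492 protein-coding genes with a RefSeq start, 13.8% had the end of another gene within 1000 bp of it. This share counts either end of the other gene, on either strand. It can be set beside Coq4, Coq6 and Coq9, among the 8 genes with a listed start. It cannot be set beside Coq8b, for which no RefSeq start was listed.

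**Figure D3:**
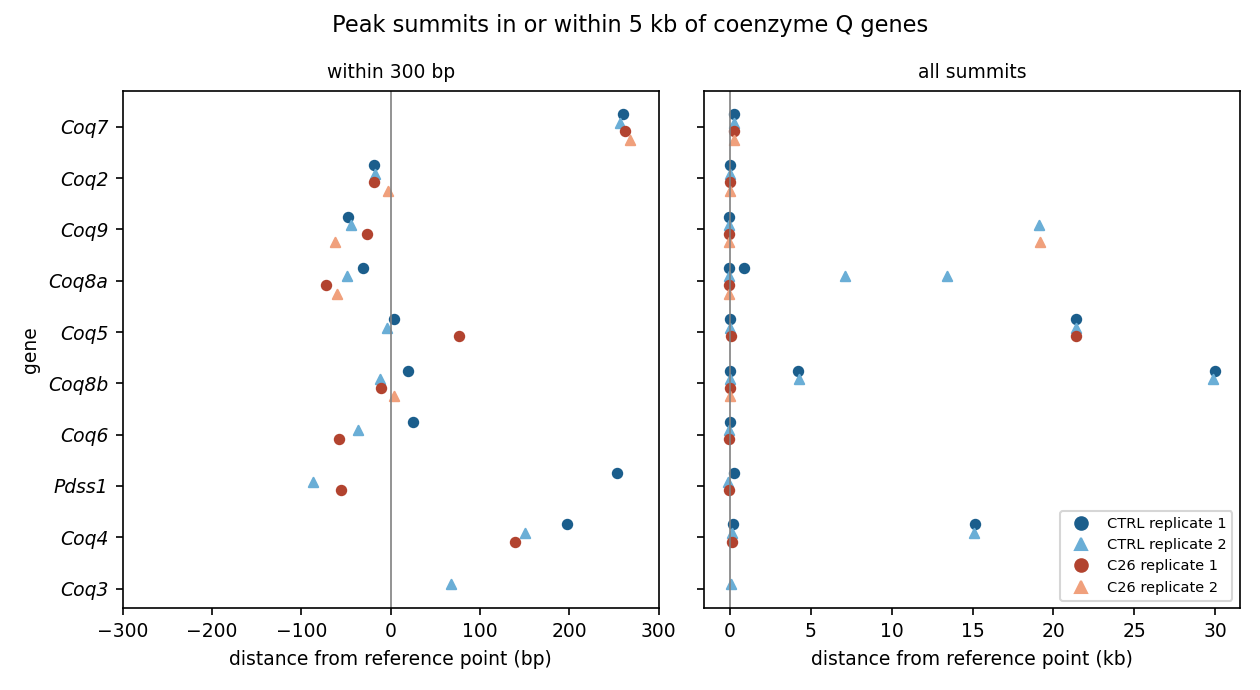
Position of every peak summit in or within 5 kb of each coenzyme Q gene, within 300 bp (left, bp) and over the whole range (right, kb), from the nearest RefSeq start of the gene, positive into the gene, or, for Coq5 and Coq8b, from the lower-coordinate end of the span. Circles are replicate 1 and triangles replicate 2, blue for CTRL and red for C26; most summits cluster within 100 bp of the reference point, those of Coq7 lie 257 to 268 bp into the gene, and the distant ones include the starts of neighboring genes.

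Away from the starts, the remaining peaks lay mostly at neighboring genes. Beyond the upper end of Coq5, peaks in both CTRL libraries and C26 replicate 1 were 43 to 92 bp before the start of Dynll1, a dynein light chain gene. In both CTRL libraries, peaks within the Coq4 window lay 10 and 52 bp from the start of Slc27a4, a fatty acid transport gene. Also in both CTRL libraries, peaks beyond the upper end of Coq8b lay 77 and 220 bp before the start of Numbl. These Coq8b peaks count among the gene-end peaks, as does the Coq8a peak at 906 bp given below. A peak in the Coq9 window, in CTRL replicate 2 and C26 replicate 2, lay 91 and 123 bp into the RNA polymerase II gene Polr2c. Inside the genes, Coq8b had a peak in both CTRL libraries (5.41- and 6.54-fold), with summits 4229 and 4252 bp from the lower end of its span. There was no peak there in either C26 library. The CTRL peaks stood at percentiles 34.6 and 41.7 and ranked 7089th of 10835 and 8729th of 14975. Neither was among the 4051 strongest peaks of its list, and the part of list length in the C26 absence was not tested. Coq8a had peaks 7117 and 13445 bp into the gene from its nearest listed start in CTRL replicate 2 alone (5.39- and 7.34-fold), and 1 at 906 bp in CTRL replicate 1 alone (4.54-fold).

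The numbers of genes with a peak overlapped between CTRL and C26 muscle. The mean number with a gene-end peak was 2 genes higher in CTRL, from 8 and 9 genes against 8 and 5 (exact permutation p = 0.667, two-sided). With the window of 5000 bp the difference was 2.5 genes, from 9 and 10 against 9 and 5 (exact permutation p = 0.667). With 2 libraries against 2 the smallest possible p is 0.333, and C26 replicate 1 had as many genes as CTRL replicate 1. Without C26 replicate 2, the shortest list, the difference was 0.5 genes by either measure. The absent peaks of Coq4, Coq5, Coq6 and Pdss1 in C26 replicate 2 therefore stand beside a list of 4051 peaks, and the part of its length in their absence was not tested. When every list was limited to its 4051 strongest peaks, a gene-end peak was left at 7 and 5 of the 10 genes in the CTRL replicates and at 6 and 5 in the C26 replicates, against 17.3%, 18.0%, 16.9% and 14.0% of all genes. The difference between the group means was then 0.5 genes (exact permutation p = 1.0). In these lists of equal length Coq2, Coq7, Coq8a and Coq9 had a peak in all 4 libraries, and Coq5 in both CTRL libraries and C26 replicate 1. Presence in all 4 was found for 9.69% of protein-coding genes at this list length.

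**Figure D4:**
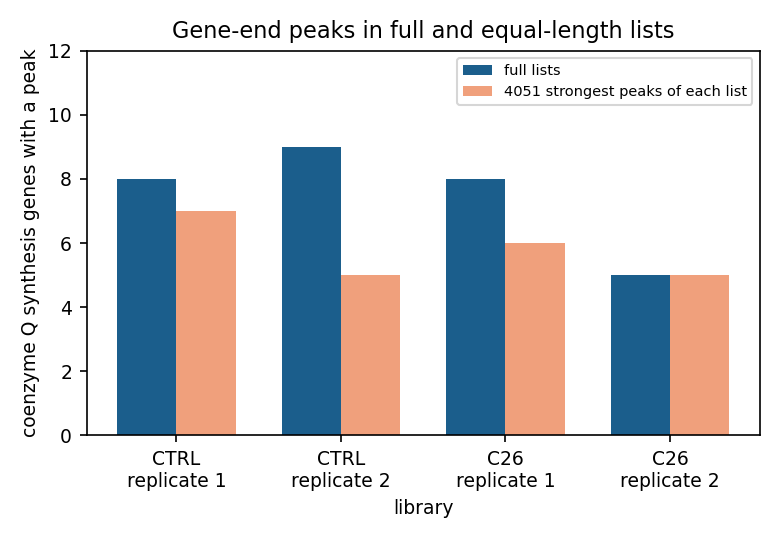
Number of the 10 coenzyme Q synthesis genes (vertical axis) with a gene-end peak in each library (horizontal axis), from the full lists and from the 4051 strongest peaks of each list. With full lists the libraries hold 8, 9, 8 and 5 genes, and with equal lengths 7, 5, 6 and 5.

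Outside the 10 genes, 33 genes that supply, bind or use coenzyme Q were examined in the same way. A gene-end peak was found at 19 of them in the CTRL pair, at 10 in all 4 libraries, at 3 in the CTRL pair alone and at 0 in the C26 pair alone. The corresponding shares of all genes were 32.2%, 12.7%, 7.4% and 0.0274%. Among the 11 supply genes, 5 of the mevalonate pathway had a peak in all 4 libraries, among them Mvk, Mvd and Idi1. Idi1, the isopentenyl diphosphate isomerase, had the strongest of them, with 35.8- and 35.4-fold enrichment in the CTRL replicates and 15.0- and 18.3-fold in the C26 replicates. The mevalonate pathway also feeds sterol synthesis.

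Of 7 genes for binding, support and transport of coenzyme Q, 3 had a peak in all 4 libraries. They were Coq10b, a coenzyme Q-binding protein (18.7- and 26.5-fold in the CTRL replicates, 14.3- and 12.0-fold in the C26 replicates), Fdxr, the ferredoxin reductase that passes electrons toward COQ6 (19.6-, 23.3-, 5.1- and 11.2-fold), and Stard7, a lipid transfer protein (4.92-, 8.24-, 4.25- and 6.78-fold). Of 15 genes whose products reduce or oxidize coenzyme Q or belong to such a complex, Sdhb and Uqcrfs1 had a peak in all 4 libraries. Of all protein-coding genes, 12.7% did. Uqcrfs1, the Rieske protein of complex III, reached 47.1- and 51.8-fold in CTRL and 23.1- and 14.7-fold in C26. The 3 genes with a peak in the CTRL pair alone belonged to this last list. Sdhd, a membrane anchor of complex II, had 3.16- and 7.1-fold in the CTRL replicates, Dhodh, the pyrimidine synthesis enzyme, 5.7- and 9.74-fold, and Aifm2, a coenzyme Q reductase that limits lipid peroxidation, 6.5- and 10.5-fold. With lists of equal length this pattern was found at 0 of the 33 genes and at 1.06% of all genes, down from 7.4% with the full lists.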

How the data were processed

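Phospho-CREB1 ChIP-seq peaks of 4 libraries were used. The submitters' processing notes name MACS2 2.1.4, Bowtie2 2.3.5.1, SAMtools 1.6, FastQC 0.11.2 and Picard, and mm10 (GRCm38) as build. Per the labels, peaks were called for every library separately, against an input of the same group, at a q threshold of 0.05. Only the inputs of replicate 2 carry a number in the labels. The peaks passed a filter of which only an abbreviation is given. Each deposited list gives the fold enrichment over input (a ratio), a whole-number score, −log10 p and −log10 q of each peak and its summit, from the authors' peak caller. The score and −log10 p were not used, and read counts were not analysed here. Gene spans (21887 protein-coding genes on 21 chromosomes), starts, strands and promoter sequence came from RefSeq tables of GRCm38.p6, the build of the peaks.

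Coordinates were converted to 1-based positions, and peaks were assigned to genes by summit with Python 3.11.15 and pandas 2.3.3. The assignment was checked on simulated summits placed at known genes. Numbers of genes per library were compared by exact permutation of the libraries. The members, the 33 related genes and the marker lists were chosen with earlier results of these data known. The text names all 10 members, the genes that end within 1000 bp of their peaks, the related genes with a peak in all 4 libraries or in both libraries of 1 group only, and the 3 genes nearest in percentile to the strongest member; neighboring genes at other peaks of the window were named after their positions were seen. Alternatives were a −log10 q of at least 3, lists of equal length, overlap of any base of the peak, other window sizes, percentiles by fold enrichment, a replicate block, and leaving out each library. The replicates are not stated to be separate animals, so p-values measure the spread between these libraries, which may be technical. Some genes counted in the lists of related genes and cell type markers are not reported by name here.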

Additional observations from a re-analysis of the deposited data

How the results depend on the processing

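The difference between CTRL and C26 in the number of genes with a peak kept its direction under every alternative tried. The shares of all genes had the same direction, for gene-end peaks 33.9% and 40.1% against 26.1% and 14.0%. With lists of equal length they were 17.3% and 18.0% against 16.9% and 14.0%. Leaving out 1 library at a time moved the difference in gene number between 0.5 and 3.5 genes for gene-end peaks. For the window of 5000 bp the difference ranged between 0.5 and 4.5 genes. By either measure the difference was lowest without C26 replicate 2 and highest without C26 replicate 1. With the replicate block the difference was 2 genes (gene ends, exact sign-flip p = 1.0) and 2.5 genes (window, p = 1.0). Replicate 1 had equal gene numbers in CTRL and C26, so this test could give no other p and decides nothing. Even without such a tie, 2 pairs cannot give a sign-flip p below 0.5. The replicate numbers are not stated to pair the libraries, and the deviations of same-numbered libraries correlated at 0.0921 over 9265 genes. With lists of equal length, 5 instead of 8 genes had a gene-end peak in the CTRL pair, and among the 33 related genes 12 instead of 19 did in the CTRL pair and 0 instead of 3 in that pair alone. Fewer peaks enter these lists, and the shares of all genes fell too, from 32.2% to 14.6% for the CTRL pair and from 7.4% to 1.06% for that pair alone. Leaving out single libraries, the count for both CTRL libraries ranged from 8 to 9, that for all libraries from 5 to 8 (8 without C26 replicate 2) and that for CTRL only from 0 to 3 (1, Coq3, without CTRL replicate 1; 3, Coq4, Coq5 and Coq6, without C26 replicate 1), and that for C26 only stayed at 0. The shares of all genes moved with them, for all libraries from 12.7% to 24.1% without C26 replicate 2, and for CTRL only from 7.4% to 13.8% without CTRL replicate 1 and to 18.7% without C26 replicate 1. Counting a peak near a RefSeq start as well as near a gene end, an alternative chosen after the data were seen, added Pdss1. It gave 9 and 10 genes in the CTRL and 9 and 5 in the C26 replicates. The shares of all genes under this rule were 36.8% and 43.3% in CTRL and 28.2% and 15.1% in C26. Ranking by fold enrichment moved 17 of 33 percentiles by more than the spread between replicates or where no spread was available, at most by 22.2 points, for Coq8b in C26 replicate 1. Depth is unknown, and with 2 libraries per group the exact permutation test used here cannot give a p below 0.333.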
